A study of Mus musculus with 36 samples.

Results

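The 10 loci described here are imprinted genes that carry methylation on the maternally inherited copy: Peg3, Kcnq1ot1, Snrpn, Mest, Peg10, Plagl1, Grb10, Nnat, Impact and Inpp5f. They were followed through 36 single embryonic brains at E11.5 in which 5-methylcytosine was read by oxidative bisulfite reduced representation sequencing, a method that leaves 5-hydroxymethylcytosine out of the methylation level and reads mainly fragments cut at CCGG and TCGA sites. For each gene, the CpGs within its GENCODE gene body (mm10) and 2 kb on each side were taken, without regard to their level. Of 921363 autosomal CpGs with 5 or more reads in each embryo compared, 454 lay in these windows, 402 of them within 1 kb of a transcript start (promoters) and 52 in the rest of the windows. The 10 genes stood among 21988 genes measured in the same way.

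The embryos came from the inbred strain 129S6.Cg Tet1<tm1Koh>, whose targeted Tet1 allele is interrupted at the start codon and gives no full-length coding transcript. Heterozygous (HET) parents were mated, so that wild-type (WT), HET and knockout (KO) embryos arose in the same litters and the germ lines of both parents carried a functional Tet1 copy. Dams had been fed a diet with 30, 3 or 0.1 ppm folic acid, each containing the gut antibiotic succinylsulfathiazole. The groups held 3 WT, 5 HET and 6 KO embryos at 30 ppm, 4 WT, 3 HET and 5 KO at 3 ppm, and 2 WT, 3 HET and 5 KO at 0.1 ppm. HET 0.1 ppm replicate 2, the shallowest library, was excluded by the study, which left 35 embryos (9 WT, 10 HET and 16 KO) with 25.6 to 197.3 M CpG calls and a mean coverage of 12.1 to 61.5. Both sexes were present, and the embryos titled as having a neural tube defect were all KO (2 at 30 ppm, 1 at 3 ppm and 2 at 0.1 ppm). Others were titled inHB, which the study lists as brain malformation. They were KO 30 ppm replicates 1 and 4, KO 3 ppm replicate 4, KO 0.1 ppm replicate 2, HET 30 ppm replicates 3 and 4 and WT 0.1 ppm replicate 2. Affected embryos were thus mostly KO, and the tests did not account for phenotype. WT 3 ppm replicate 1 held the most reads over these loci. Because the strain is inbred, the maternal and paternal copies could not be separated, and a level near 50% cannot be told apart from methylation of both copies in a part of the cells.

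A CpG within Tet1 (chr10:62884019) served as a check of the genotype labels. It was methylated at 0 to 7.32% in 7 of the WT libraries (median 5.88%), at 8.33 to 69.2% in the 10 HET libraries (median 29.3%) and at 69.6 to 100% in 15 of the KO libraries (median 82.6%). The library labelled KO 30 ppm replicate 1, at 45%, and the libraries labelled WT 30 ppm replicate 2, at 36.36%, and WT 0.1 ppm replicate 2, at 40%, stood with the HET libraries instead. The study's own sample list gives the embryo of the first of these as HET, while its GEO title gives KO. It gives the other 2 embryos as WT, like their titles. The check rests on 1 CpG, with 20, 33 and 15 reads in these libraries in turn. The upper end of the HET range was the library labelled HET 0.1 ppm replicate 1, close to the lowest of the KO libraries. All groups below follow the labels, and the main results are also given without the 3 libraries that went against theirs. Without KO 30 ppm replicate 1 alone, 0 of 8 control regions, 0 of 10 promoters and 0 of 6 rests were called in KO against WT, and without HET 0.1 ppm replicate 1 the same counts held in HET against WT.

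Genomic imprinting marks a gene according to the parent it came from. At the loci studied here, the mark is DNA methylation laid down in the growing oocyte by DNMT3A and DNMT3L over a CpG-rich germline control region, most often at a promoter, and the gene is then in most cases expressed from the unmethylated paternal copy. After fertilization the mark is held through the genome-wide loss of methylation by the zinc finger protein ZFP57, which binds the methylated hexamer TGCCGC and recruits TRIM28, and it is then kept in somatic cells. TET1 oxidizes 5-methylcytosine and takes part in erasing imprints in primordial germ cells. Kcnq1ot1 is a long noncoding RNA that silences its neighbours in cis, Snrpn encodes a splicing protein active in neurons, Peg3 and Plagl1 encode zinc finger proteins, and Mest encodes a hydrolase-like enzyme. Peg10 derives from a retrotransposon and is needed in the placenta, Grb10 encodes a growth-inhibiting adaptor that is expressed from the paternal copy in neurons, Nnat encodes a small membrane protein of neurons, Impact a regulator of translation, and Inpp5f an inositol phosphatase with an imprinted brain variant.

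Control regions were set from the data as runs of at least 5 CpGs with gaps of at most 500 bp, each CpG at a mean of 25 to 75% over the 35 embryos, that overlapped a promoter of the gene or, for Impact, its first intron. Genome-wide 1724 such intermediate blocks were found, and 8 of them, with 215 CpGs, were control regions of 8 of the 10 genes. The blocks were named by position on mm10, with gene parts from GENCODE M21. The Kcnq1ot1 region (chr7:143295405-143295611, 12 CpGs) lay in the exon of this antisense RNA and within an intron of Kcnq1, with its centre 1041 bp inside the transcript. The Snrpn region (chr7:60004602-60005200, 10 CpGs) covered an exon at the common start of Snrpn and Snurf and the sequence before it. The Peg10 region (chr6:4747363-4747485, 11 CpGs) lay in the 5′ exon, the Plagl1 region (chr10:13090824-13091128, 36 CpGs) at the exons of several alternative starts, and the Grb10 region (chr11:12025555-12026856, 63 CpGs) over internal starts and the noncoding exons beside them. The Nnat region (chr2:157560106-157560549, 43 CpGs) covered the first exon, inside an intron of Blcap, while the Impact region (chr18:12973140-12973544, 30 CpGs) and the Inpp5f region (chr7:128688091-128688301, 10 CpGs) were intronic. Peg3 and Mest had no such region at this coverage and are described by their promoters.

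Parts of 5 control regions are printed to show how densely the measured CpGs were packed and where the TGCCGC hexamer fell. They are read from the plus strand of GRCm38 (mm10), and capitals mark the CpGs that were measured in all 35 embryos.

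Kcnq1ot1, chr7:143295405-143295611: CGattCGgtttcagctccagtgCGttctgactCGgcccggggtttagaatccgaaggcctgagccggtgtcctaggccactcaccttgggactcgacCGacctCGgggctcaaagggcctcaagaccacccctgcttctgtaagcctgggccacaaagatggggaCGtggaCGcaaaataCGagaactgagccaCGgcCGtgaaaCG
Snrpn, chr7:60005112-60005200: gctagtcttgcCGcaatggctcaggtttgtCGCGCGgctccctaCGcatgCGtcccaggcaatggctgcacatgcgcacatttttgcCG
Plagl1, chr10:13091025-13091128: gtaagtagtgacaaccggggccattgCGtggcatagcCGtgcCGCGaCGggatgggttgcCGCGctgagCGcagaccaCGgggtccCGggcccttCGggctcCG
Grb10, chr11:12025555-12025774: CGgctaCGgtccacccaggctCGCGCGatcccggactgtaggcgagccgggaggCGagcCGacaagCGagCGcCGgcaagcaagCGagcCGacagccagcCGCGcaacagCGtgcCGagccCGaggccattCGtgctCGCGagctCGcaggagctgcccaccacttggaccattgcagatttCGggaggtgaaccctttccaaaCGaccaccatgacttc
Inpp5f, chr7:128688091-128688301: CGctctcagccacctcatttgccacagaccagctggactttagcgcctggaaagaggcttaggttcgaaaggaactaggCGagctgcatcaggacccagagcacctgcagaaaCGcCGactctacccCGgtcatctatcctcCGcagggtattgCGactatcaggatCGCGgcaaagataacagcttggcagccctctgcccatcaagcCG

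In these stretches 12 of 16 CpGs were measured at Kcnq1ot1, 7 of 8 at Snrpn, 12 of 13 at Plagl1, 23 of 26 at Grb10 and 10 of 12 at Inpp5f. The hexamer, searched as TGCCGC and its reverse complement GCGGCA, occurred 2 times in the Plagl1 stretch and 1 time each in those of Snrpn and Inpp5f. In 1000 bp centred on each region it occurred in 8 of 8, with a median of 4.5 copies, from 1 at Peg10 to 8 at Snrpn. Of the other intermediate blocks, 486 of 1716 (28.3%) held it in a window of the same length. The control regions were also denser in CpGs, with a median observed-to-expected ratio of 0.826 over 1000 bp against 0.399 for the other blocks. A match to the hexamer describes the sequence and is no measure of binding.

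The 8 control regions were all methylated to a little below 50%, which in part follows from the 25 to 75% bounds. Over the 35 embryos the means were 40.19% ± 11.3 (SD, n = 35) at Snrpn, 43.9% ± 5.69 at Inpp5f, 45.0% ± 4.05 at Plagl1, 45.0% ± 5.20 at Impact, 46.7% ± 5.87 at Nnat, 47.6% ± 4.83 at Kcnq1ot1, 47.9% ± 7.28 at Peg10 and 48.0% ± 3.36 at Grb10. Neighbours in this order differed by less than 1 SD over the embryos. All 215 CpGs of the regions had a mean between 36.0 and 68.6%. Each level pooled 80 to 8172 reads, with the fewest at Snrpn and the most at Grb10. CpGs of a fragment are read from the same molecules, so pooled reads overstate the depth.

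**Figure D1:**
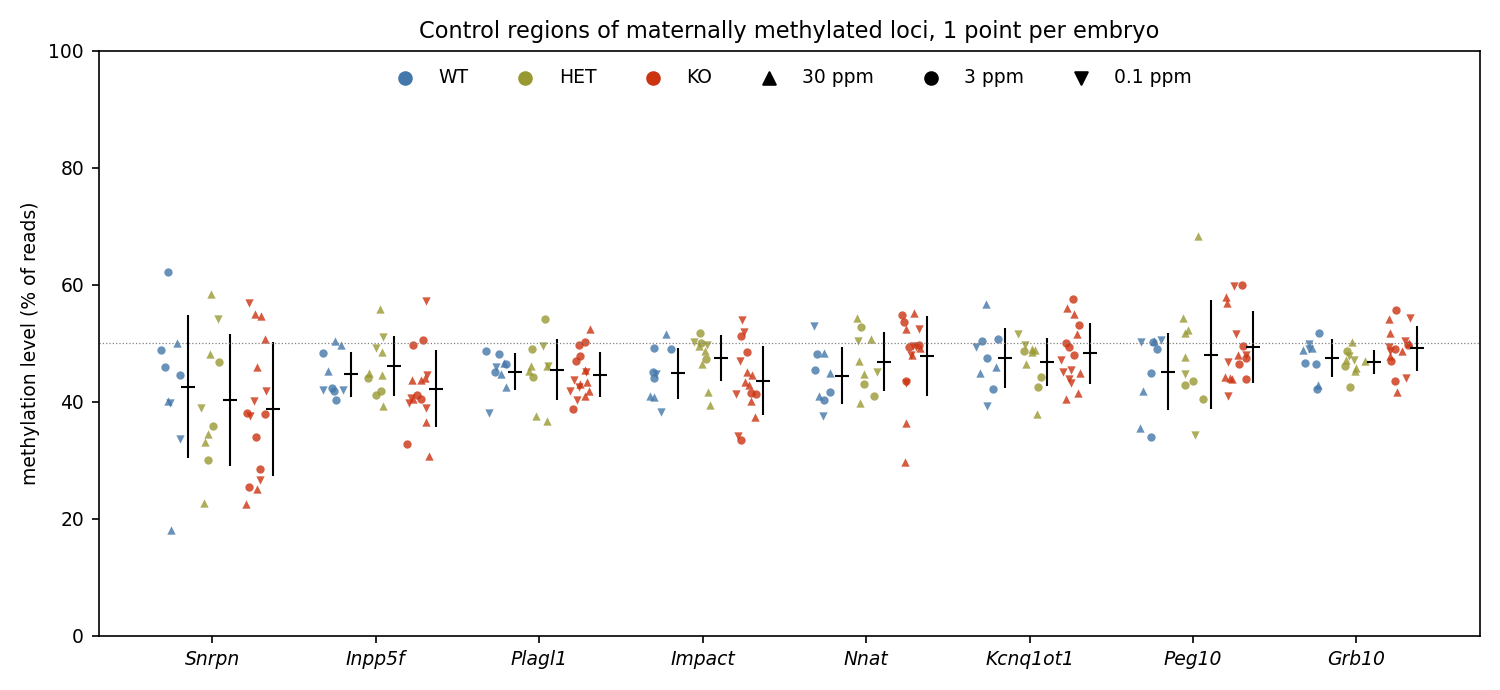
Methylation level (% of reads, y axis) of the 8 control regions (x axis) in each of 35 embryos, coloured by genotype and shaped by the folic acid of the diet, with bars at mean ± SD per genotype and a dotted line at 50%. The genotypes overlap at every region, and Snrpn has the widest scatter, from 18.1 to 62.2%.

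The first comparison asked whether loss of TET1 changed methylation at the imprinted control regions. No region passed the test. Levels in KO embryos (n = 16) overlapped those in WT embryos (n = 9) at all 8 regions. At Kcnq1ot1 the lowest, median and highest levels were 39.3, 47.4 and 56.8% in WT and 41, 47.6 and 57.6% in KO. At Plagl1 they were 38.2, 45.9 and 48.7% in WT and 38.8, 43.6 and 52.4% in KO, and at Grb10 42.3, 48.9 and 51.7% in WT and 41.7, 49.2 and 55.8% in KO. Of the WT and KO embryos, a KO embryo had the highest level at every region but Snrpn. At Peg10, WT ran from 33.9 through a median of 49.0 to 50.52%, and KO from 40.9 through 47.7 to 60.0%. At Nnat the corresponding values were 37.6, 44.9 and 53.0% in WT and 29.7, 49.4 and 55.2% in KO, with the lowest level in KO 30 ppm replicate 3. At Impact they were 38.32, 44.8 and 51.5% in WT and 33.5, 43.2 and 53.9% in KO, and at Inpp5f 40.34, 42.4 and 50% in WT and 30.7, 40.9 and 57% in KO. The KO range reached further to both sides at Grb10, Nnat, Impact and Inpp5f, and the KO group was also the larger.

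With diet as a covariate, the KO minus WT difference was 1.36 ± 2.08 points (SE; 95% interval -2.96 to 5.68) at Kcnq1ot1, 4.02 ± 2.74 (-1.67 to 9.72) at Peg10, -0.06 ± 1.40 (-2.97 to 2.85) at Plagl1 and 1.55 ± 1.59 (-1.76 to 4.86) at Grb10. It was 3.46 ± 2.66 (-2.07 to 8.99) at Nnat, -1.15 ± 2.38 (-6.09 to 3.80) at Impact, -2.58 ± 2.53 (-7.85 to 2.68) at Inpp5f and -3.76 ± 5.14 (-14.5 to 6.94) at Snrpn. Adjusted p in the quasi-binomial test with moderated dispersion over all blocks ranged from 0.0982 at Peg10 to 0.979 at Plagl1. A region was called at adjusted p under 0.05 and at least 10 points. None of the 8 was called, whereas 1276 of the 1724 blocks (74.0%) were, 1275 of them higher in KO and 1 lower. The median difference was 18.1 points over all blocks and 0.65 points over the 8 control regions, and every 95% interval above ends below 18.1 points.

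**Figure D2:**
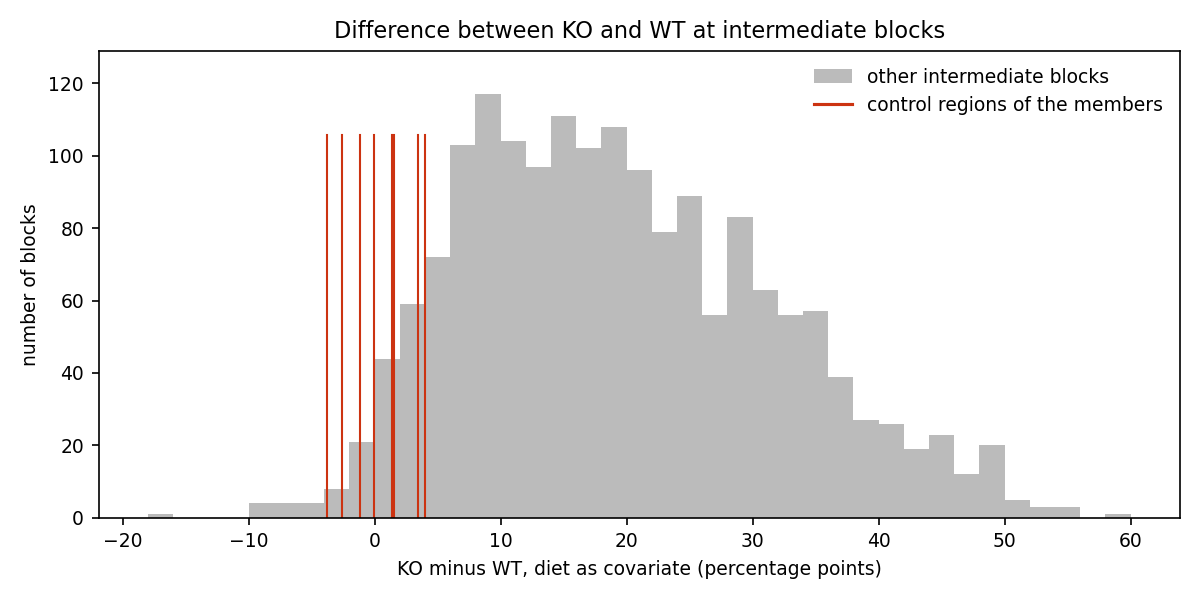
Difference in methylation level between KO and WT embryos (percentage points, x axis) for the other 1716 intermediate blocks (grey histogram, number of blocks on the y axis) and for the 8 control regions (red lines). The control regions sit between -3.76 and 4.02 points, at the low edge of a distribution with a median near 18 points.

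Since the blocks were bounded by a mean that included the KO embryos, they were also set from the WT embryos alone. Then 0 of 8 control regions and 1157 of 1660 blocks (69.7%) were called, with a median difference of 14.6 points over the blocks. Without the 3 libraries that went against their labels, 0 of 8 control regions and 79.6% of the blocks were called. The 8 differences then ran from -6.51 to 4.599 points. The lowest was that of Snrpn, which passed the quasi-binomial test (adjusted p = 0.0453) but not the 10 points. Among the other blocks at least as dense in CpGs as the sparsest control region, 164 of 250 (65.6%) were called. Of these 250, 12 lay in windows of imprinted loci (the 10 genes and 15 others), where 1 was called, and 238 lay elsewhere, where 163 (68.5%) were. The control regions were also read more deeply (median 605.5 reads an embryo against 143 for the other blocks) and varied less within groups (median SD 5.38 against 7.40 points). Fewer cells of a type with methylated copies and less methylation per cell cannot be told apart in whole brains.

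The genome-wide level was highest in KO embryos, while the control regions had similar medians in the 3 genotypes. The mean over all shared CpGs was 31.2 to 32.4% in WT embryos (median 31.6%), 31.8 to 32.7% in HET (32.3%) and 31.6 to 34.8% in KO (34.0%). The median of the 8 control regions in each embryo was 43.41 to 47.2% in WT (median 46.3%), 43.6 to 49.7% in HET (46.7%) and 41.1 to 52.9% in KO (45.81%). The loci showed little tendency to rise and fall together. Over the 35 embryos the 28 pairs of regions had Spearman correlations from -0.428 to 0.31, the highest between Nnat and Peg10, with a median of 0.03. The points share libraries, and the correlations are given as a description.

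The evenness of the level from CpG to CpG differed between regions. At Kcnq1ot1 the 12 CpG means lay between 46.0 and 48.2% and at Snrpn the 10 means between 37.8 and 47.1%, whereas the 43 means at Nnat ran from 36.38 to 51.4% and the 63 at Grb10 from 43.2 to 68.6%. The CpG nearest the middle of the Kcnq1ot1 region (chr7:143295508) stood at 46.1% ± 4.84 in WT (SD, n = 9), 46.0% ± 6.06 in HET (n = 10) and 46.0% ± 9.00 in KO (n = 16). Its depth was 21 to 153 reads. At 21 reads (HET 30 ppm replicate 2) the level of 38.1% had a 95% Wilson interval of 20.8 to 59.1%, and at 153 reads (WT 3 ppm replicate 1) the level of 46.4% had one of 38.69 to 54.3%, both for counting error only. The middle CpG of Grb10 (chr11:12026209) stood at 41.7% ± 7.20 in WT and 44.1% ± 8.41 in KO, and that of Peg10 (chr6:4747418) at 40.8% ± 8.12 and 46.5% ± 8.37. Those of Plagl1 (chr10:13090974) and Nnat (chr2:157560331) were at 44.5% ± 8.51 against 40.32% ± 10.3 and at 34.98% ± 5.05 against 36.63% ± 18.5. Those of Impact (chr18:12973336), Inpp5f (chr7:128688204) and Snrpn (chr7:60005092) were at 45.4% ± 9.64 against 39.8% ± 11.4, 40.9% ± 13.3 against 42.7% ± 15.9 and 49.7% ± 20.4 against 44.5% ± 18.1. The WT and KO ranges of each middle CpG overlapped.

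**Figure D3:**
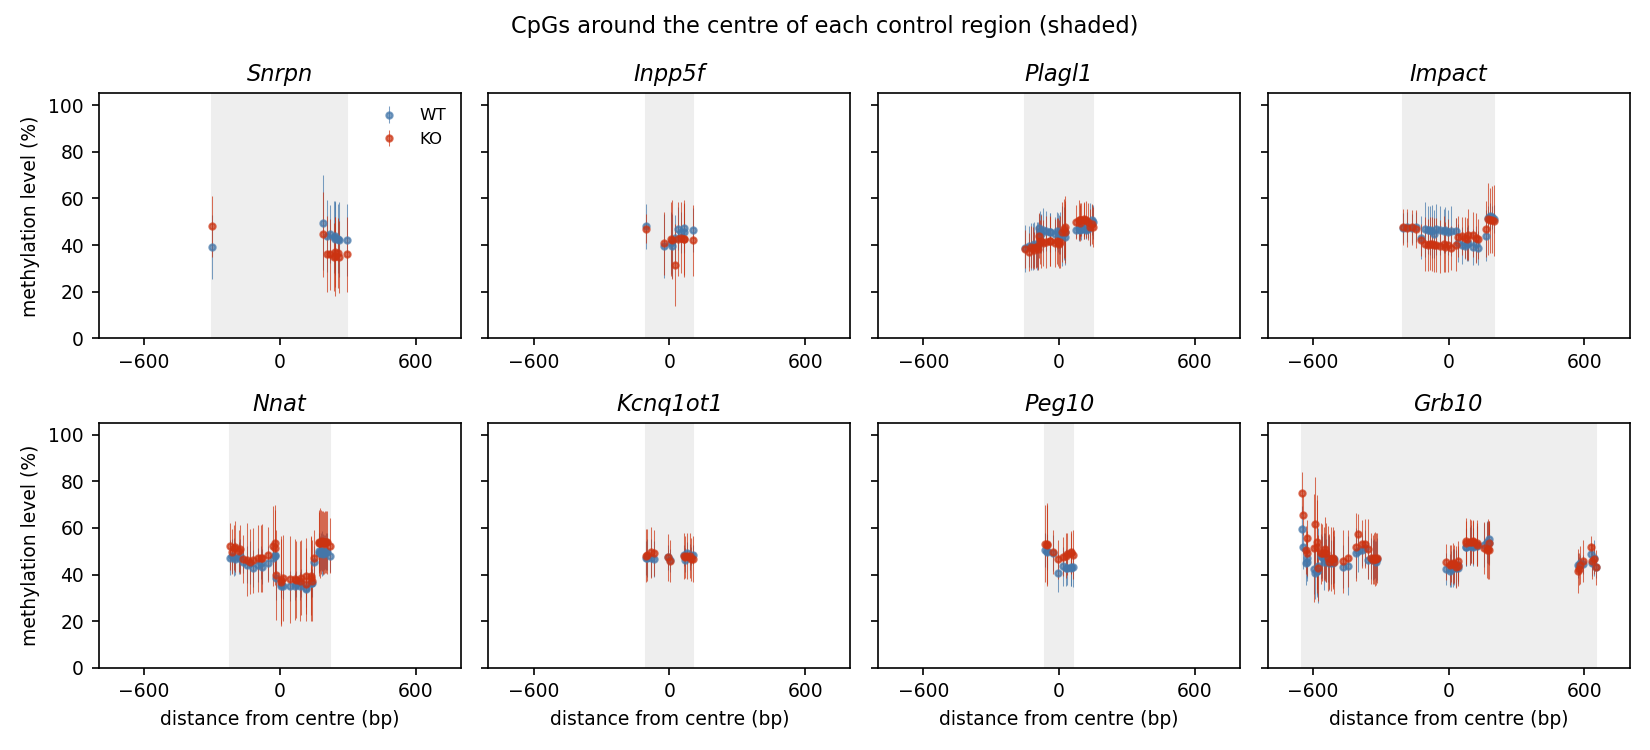
Mean methylation level (%, y axis) of each measured CpG in WT (blue) and KO (red) embryos against its distance from the centre of the control region (bp, x axis), with error bars of 1 SD over embryos and the region shaded. WT and KO points lie over each other in most panels, while the left edge of the Grb10 region is higher in KO and most Snrpn CpGs are lower in KO.

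Single CpGs were compared by their means. Across the 454 CpGs of the windows, the KO mean was at least 10 points above the WT mean at 19 and at least 10 points below at 3. Of the 215 CpGs in control regions, 5 (2.33%) were higher by that much and 1 (0.465%) lower, beside 7.37% and 0.0244% of the 921363 shared CpGs and 72.1% and 0.252% of the 12315 CpGs in all intermediate blocks. These counts were made on means with no test per CpG, and the CpGs named from them were chosen after their values were seen. The 5 higher CpGs all lay at the left edge of the Grb10 region as printed above, between chr11:12025555 and chr11:12025625. The first of them (chr11:12025555) stood at 59.7% ± 9.59 in WT (SD, n = 9), 66.5% ± 9.75 in HET (n = 10) and 75.02% ± 9.17 in KO (n = 16), and the CpG at chr11:12025614 at 40.6% ± 11.02, 46.3% ± 12.9 and 61.9% ± 20.1. The lower CpG was in the Inpp5f region (chr7:128688218), with 43.1% ± 9.93 in WT and 31.5% ± 17.5 in KO.

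A further run of 7 of the 19 higher CpGs lay within 1 kb of the most upstream Grb10 start, over chr11:12038098-12038833, outside the control region. At chr11:12038787 the level was 19.9% ± 6.76 in WT, 28.0% in HET and 44.0% ± 11.5 in KO, and at chr11:12038672 14.1% ± 7.96, 13.8% and 35.8% ± 14.7. At Kcnq1ot1 1 CpG of 22 was higher by 10 points or more, and at Plagl1, Peg3, Peg10 and Nnat none was. At Impact, 2 CpGs before the most upstream start, apart from the intronic mark, had means of 7.07% in WT and 20.2% in KO (chr18:12955778) and of 17.2% and 36.1% (chr18:12955791).

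Promoters and rests were then tested as wholes. No promoter of the 10 genes was called in KO against WT, beside 879 of 17278 promoters (5.09%) in the genome, and none of the 6 testable rests was, beside 1318 of 16965 (7.77%). The promoter CpGs of Peg10 and Snrpn are those of their control regions, so their promoter differences repeat those given above. The median difference was 0.72 points over the 10 promoters and 3.58 points over the 6 rests, against 0.38 and 2.66 points over all promoters and rests. Without the 3 libraries the medians of the 10 genes were 1.24 and 5.84 points, against 0.46 and 3.17 points over all promoters and rests. Then 5 of the 6 rests in place of 1 had an unadjusted p under 0.05. The share of all rests was then 60.9% in place of 56.1%. The promoters covered marked and unmarked starts together, with 154 of their 402 CpGs under 10%, 236 at 25 to 75% and 5 over 75%, whereas 28 of the 52 CpGs in the rests were over 75%.

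Mest, Grb10 and a second Kcnq1ot1 block passed the adjusted p but not the 10 points. The adjusted p alone was passed by 2 of the 10 promoters and 1 of the 6 rests, beside 32.1% of all promoters, 50.7% of all rests and 86.3% of all blocks. No test compared these counts with the shares. The Mest promoters (10 CpGs) ranged from 27.6 to 45.1% in WT and from 30.6 to 50.8% in KO, with means of 33.1% ± 5.82 (SD, n = 9) and 39.3% ± 6.73 (n = 16). The difference was 6.82 ± 2.49 points (SE; quasi-binomial test, adjusted p = 0.00613). HET embryos were at 34.06% ± 3.20 (n = 10). The Grb10 promoters were at 21.4% ± 1.49 in WT and 22.8% ± 2.14 in KO, a difference of 1.45 ± 0.75 points with an adjusted p of 0.0433 by that test. In the rest of the Grb10 window (5 CpGs) WT embryos had 68.0 to 83.1% and KO embryos 73.4 to 91.6%, with a difference of 6.57 ± 1.88 points and an adjusted p of 0.00459 by that test. The CpG at chr11:11948484 went from a mean of 34.7% in WT to 52.68% in KO, and the other 4 CpGs of this rest, with WT means of 85.8 to 95.2%, differed less. The second Kcnq1ot1 block (chr7:143266050-143266122, 5 CpGs, 30463 bp into the transcript, CpG ratio 0.181) held 35.6 to 52.3% in WT and 37.4 to 70.3% in KO. Its difference of 9.13 ± 3.61 points had an adjusted p of 0.0117 by that test. Of the features named here as passing the adjusted p, only the Grb10 promoters had a 95% interval that included no difference (-0.10 to 3.00 points). A second Nnat block (chr2:157561448-157561941, 12 CpGs) differed by 1.10 ± 1.69 points, with 53.4% ± 2.64 in WT and 54.5% ± 4.35 in KO.

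**Figure D4:**
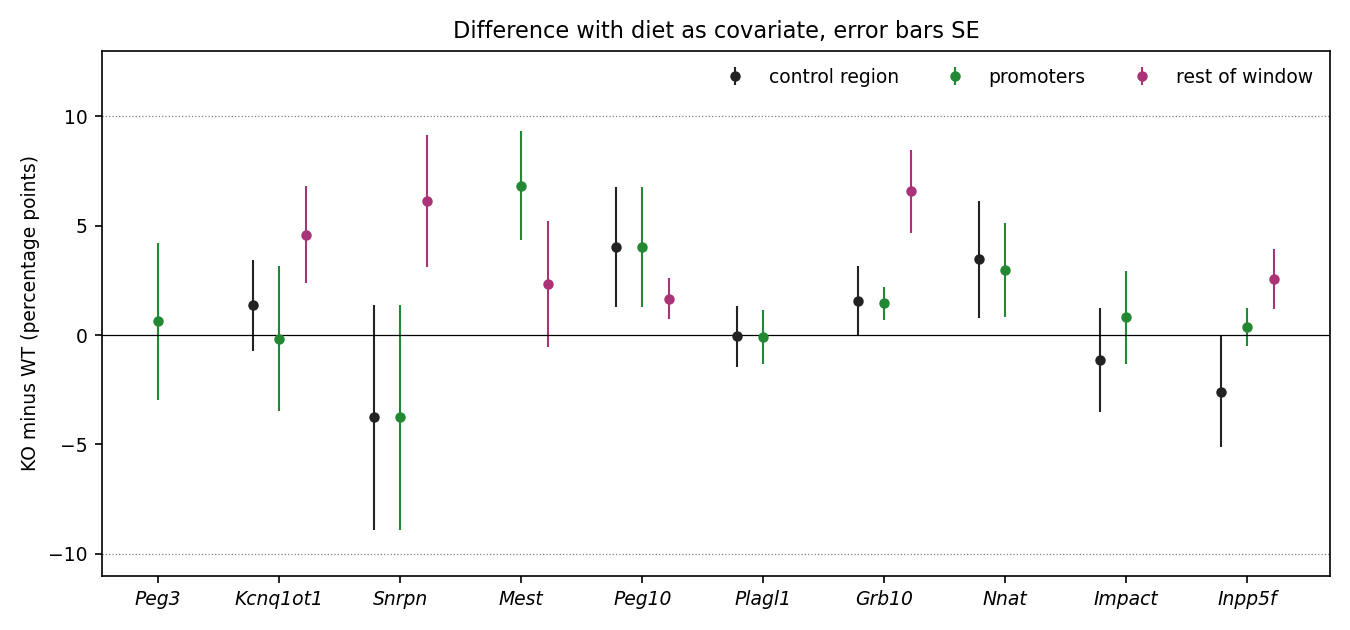
KO minus WT difference (percentage points, y axis, error bars SE, diet as covariate) for the control region, the promoters and the rest of the window of each gene on the x axis. No value passes the dotted lines at 10 points, and the highest are the Mest promoters at 6.82 and the rest of the Grb10 window at 6.57.

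Of the 6 tested rests, that of Peg10 was the most methylated, at 92.4% ± 1.44 in WT, 95.3% ± 1.35 in HET and 94.0% ± 2.46 in KO over 9 CpGs. The rest of the Inpp5f window was at 87.9% ± 3.69 in WT and 90.6% ± 3.28 in KO, that of Snrpn at 78.4% ± 8.19 and 83.5% ± 7.63, that of Mest at 58.6% ± 5.69 and 60.4% ± 7.39, and that of Kcnq1ot1 at 55.1% ± 5.48 and 59.4% ± 4.97. Of the 16 CpGs in the Kcnq1ot1 rest, 6 belong to its control region, which reaches past 1 kb from the start, and 5 to the second block, so that this rest is not separate from either. All 6 tested rests were higher in KO on average, as were 92.4% of the rests genome-wide. At the promoters, Inpp5f stood at 10.2% ± 2.03 in WT and 10.6% ± 2.06 in KO, and Plagl1 at 28.9% ± 2.78 and 28.6% ± 3.07.

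Peg3 and Mest were read only in part. The 3 CpGs at the Peg3 promoters were at 46.3% ± 7.12 in WT (SD, n = 9), 47.3% ± 4.71 in HET (n = 10) and 46.9% ± 8.84 in KO (n = 16), and the KO minus WT difference was 0.63 ± 3.60 points (SE; 95% interval -6.86 to 8.12). When CpGs covered in at least 20 of the 35 embryos were let in, a choice made after seeing the data, both genes gained a control region. That of Peg3 (chr7:6730824-6731041, 7 CpGs) lay 501 bp before the Peg3 starts, in an exon of the divergent gene Usp29, and had at least 10 reads in 20 embryos, with 39.8% ± 12.4 in WT (n = 6), 42.8% ± 21.1 in HET (n = 7) and 37.2% ± 15.7 in KO (n = 7). That of Mest (chr6:30738395-30738602, 10 CpGs) lay in an intron 443 bp beyond the nearest start and had such depth in 25 embryos, with 37.2% ± 12.4 in WT (n = 7), 51.0% ± 19.5 in HET (n = 7) and 39.6% ± 17.7 in KO (n = 11). These 2 regions were not tested. At the Mest locus 2 CpGs in the gene body before this region (chr6:30735146 and chr6:30735272) had lower means in KO, 41.9% and 40.6% against 53.1% and 53.8% in WT.

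Loss of 1 Tet1 copy was compared next. In HET against WT, 0 of 8 control regions, 0 of 10 promoters and 0 of 6 rests were called, beside 6.90% of blocks, 0% of promoters and 0.0295% of rests. At an unadjusted p under 0.05 there was 1 of each, beside 34.9% of blocks, 7% of promoters and 14.3% of rests. These were the Impact control region, with 44.9% ± 4.41 in WT and 47.5% ± 3.96 in HET and a difference of 3.20 ± 1.88 points, the Impact promoters, which overlap it, and the rest of the Peg10 window, with 2.83 ± 0.65 points. The 8 differences ran from -1.31 points at Snrpn to 3.20 points at Impact, with a median of 0.91 points against 4.69 points over all blocks. With litter as a block in place of diet, Snrpn was called at -10.2 points (quasi-binomial test, adjusted p = 0.0452), where the fit with diet gave -1.31 ± 5.64 points. Without the 3 libraries 0 of 8 control regions were called, the difference at the Impact control region was 1.80 points, no control region had an unadjusted p under 0.05, and the count of blocks called rose from 119 to 397.

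Within each diet, Snrpn at 3 ppm was the 1 control region that passed. In KO against WT, 0 of 8 were called at 30 ppm (50.52% of blocks), 1 of 8 at 3 ppm (76.9%) and 0 of 8 at 0.1 ppm (62.5%). Of the blocks called at 3 ppm, 1322 were higher in KO and 3 lower, the Snrpn region among the lower ones. Among promoters, 0 of 10 were called at 30 ppm (0.00579% of all), 1 of 10 at 3 ppm (6.00%) and 0 of 10 at 0.1 ppm (4.67%), and the promoter called at 3 ppm was Snrpn, whose promoter CpGs are those of its control region. Among rests, 0 of 6 were called in each diet, beside 0.949, 10.5 and 7.62% of all rests. The shares at 30 ppm moved with KO 30 ppm replicate 1 and WT 30 ppm replicate 2, which went against their labels and without which 5.70% of promoters and 10.3% of rests were called. At 30 ppm without these 2 libraries 0 of 8 control regions were called, with differences of -6.94 to 7.21 points, against 1294 of 1724 blocks, and the rest of the Grb10 window was called, with 14.6 points (quasi-binomial test, adjusted p = 0.0118), where the full groups gave 9.87 ± 3.87 points. The second Kcnq1ot1 block was called at 3 ppm. Its WT levels there were 46.4, 46.6, 39.0 and 35.6%, its KO levels were 53.6, 63.7, 64.5, 41.33 and 50%, and 1 KO embryo lay inside the WT range. The difference was 12.7 ± 5.50 points (SE; 95% interval -0.27 to 25.8), with an adjusted p of 0.0221 by that test. The interval, taken from the levels of the embryos, included no difference, although the test on reads passed.

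Snrpn was lower in KO than in WT embryos at 3 ppm. The WT levels were 48.9, 44.6, 45.9 and 62.2%, and the KO levels were 37.9, 28.6, 33.9, 25.5 and 38.1%. Every KO embryo lay below every WT embryo. The 3 HET embryos, at 35.9, 30.0 and 46.8%, fell across both. The difference was -17.6 ± 4.55 points (SE; 95% interval -28.4 to -6.88; quasi-binomial test over all blocks, adjusted p = 0.00025). The SE and interval came from the spread of these embryos, while p used a dispersion moderated over all blocks. No adjustment was made over the 9 comparisons. It stayed between -19.6 and -13.7 points, called each time, when any single embryo was left out, and was -15.8 points with litter as a block. The region rests on 10 CpGs, 9 of which lie from chr7:60005092 to chr7:60005199, and it had no CpG run that could be tested at a minimum of 10 reads. Over the 28 CpGs of the same span covered in at least 20 embryos the difference was -11.1 ± 5.10 points (SE). Its 95% interval, -23.1 to 1.00 points, included no difference, although the adjusted p was 0.0122 by that test. The groups then overlapped, with KO at 24.4 to 45.7% and WT at 44.5 to 57.0%.

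At the other diets the Snrpn groups overlapped. At 30 ppm the WT levels were 50.08, 40.16 and 18.1%, the HET levels 34.4, 58.4, 22.7, 48.2 and 33.2%, and the KO levels 50.7, 54.9, 22.6, 45.9, 54.69 and 25%. At 0.1 ppm the WT levels were 39.8 and 33.6%, the HET levels 39.0 and 54.2%, and the KO levels 56.9, 26.7, 37.5, 40 and 41.78%. The lowest and highest embryos of the whole study were both WT, at 18.1% (30 ppm replicate 3) and 62.2% (3 ppm replicate 4). The KO minus WT difference was 6.18 ± 10.8 points at 30 ppm and 3.88 ± 8.28 points at 0.1 ppm. Neither sign held when single embryos were left out. The 30 ppm difference ran from -2.83 points (without WT 30 ppm replicate 3) to 13.2 points (without WT 30 ppm replicate 1), and the 0.1 ppm difference from -0.19 points (without KO 0.1 ppm replicate 1) to 7.36 points (without KO 0.1 ppm replicate 2). The KO difference at 30 ppm exceeded that at 3 ppm by 23.8 ± 11.5 points (p = 0.0355, adjusted p = 0.344 by the quasi-binomial test), and the one at 0.1 ppm exceeded it by 21.5 ± 8.82 points (p = 0.00762, adjusted p = 0.711). A dependence of the Snrpn difference on diet therefore did not pass the test, and 0% of the 1724 blocks passed in either of these comparisons.

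**Figure D5:**
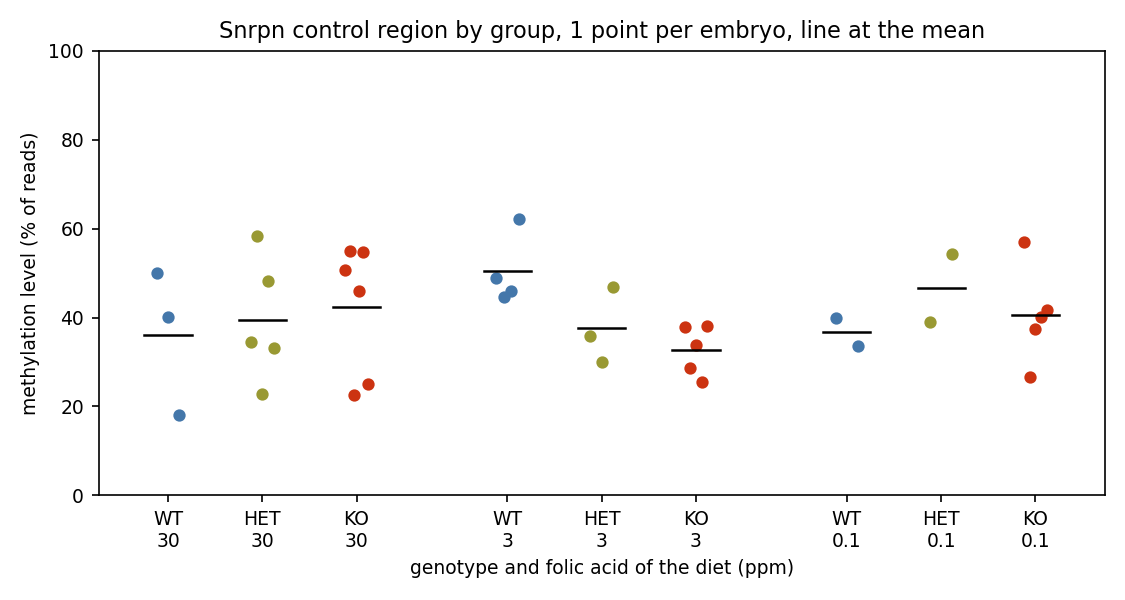
Methylation level of the Snrpn control region (% of reads, y axis) in each embryo, by genotype and folic acid of the diet (ppm, x axis), with a line at each group mean. The 5 KO embryos at 3 ppm (25.5 to 38.1%) lie below the 4 WT embryos (44.6 to 62.2%), while the groups overlap at 30 and 0.1 ppm.

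Snrpn also varied the most among embryos of a group. Its SD within groups was 11.6 points, where that of the other 7 regions was 3.56 to 6.66 points. The median depth was 16 reads a CpG at Snrpn and 15 at Inpp5f, whose SD was 5.55 points. Whether depth shaped the spread at Snrpn was not tested. The 7 Snrpn CpGs of the printed stretch had means of 37.8 to 39.3%. At the CpG that stood alone at the downstream end (chr7:60004602) the KO mean was 48.0% and the WT mean 39.1%, opposite in direction to the other 9.

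No further control region, promoter or rest was called within a diet when all embryos were kept. The Inpp5f control region was -8.56 ± 3.38 points in KO against WT at 30 ppm (adjusted p = 0.0713 by the quasi-binomial test), Nnat 6.34 ± 2.74 points at 3 ppm (adjusted p = 0.0680) and Peg10 6.56 ± 4.83 points at 30 ppm (adjusted p = 0.134). When single embryos were left out, these ran from -10.1 to -6.72, from 5.15 to 8.02 and from 3.02 to 10.4 points in turn, and were never called. Over the CpGs covered in at least 20 embryos, Peg10 was -0.81 ± 3.36 points at 30 ppm (22 CpGs, adjusted p = 0.813 by that test). On these CpGs Nnat at 3 ppm was 5.88 ± 2.365 points (adjusted p = 0.0498), and Inpp5f at 30 ppm kept its value. Peg10 at 3 ppm was then 8.26 ± 3.33 points (adjusted p = 0.00918). None of these reached 10 points. The Mest promoters were at 30.9, 28.4, 45.1 and 35.16% in WT and at 50.8, 47.5, 33.7, 42.4 and 46.7% in KO at 3 ppm, so that the groups overlapped. The difference of 9.33 ± 4.65 points had an adjusted p of 0.0283 by that test but was under 10 points, as were the Grb10 promoters (2.57 ± 1.43 points, adjusted p = 0.0319) and the rest of the Inpp5f window (5.00 ± 1.32 points, adjusted p = 0.0289) at 3 ppm. The Mest difference reached 12.7 points without WT 3 ppm replicate 3 and 12 points without KO 3 ppm replicate 3, and was called in both. With 2 WT embryos at 0.1 ppm, leaving out WT 0.1 ppm replicate 1 brought Nnat to 11 points with an adjusted p of 0.0033 by that test, a value that rests on the 1 library whose Tet1 level went against its label.

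The maternal diet was compared with genotype as a covariate. None of the 8 control regions, 10 promoters or 6 rests was called at 30 against 3 ppm, where 0% of blocks, 0% of promoters and 0% of rests were called, or at 0.1 against 3 ppm, where 0.290% of blocks, 0.00579% of promoters and 0% of rests were. Both comparisons share the 3 ppm embryos. The diet was given to the dam, and each diet group came from a few litters. These fits counted embryos and not dams as replicates, so their SE and p leave out variation between litters. At an unadjusted p under 0.05 there was 1 control region, Plagl1, in each, beside 6.61% of blocks at 30 against 3 ppm and 15.4% at 0.1 against 3 ppm. Its level was 43.8% ± 3.93 at 30 ppm (SD, n = 14; 36.8 to 52.4%), 47.5% ± 3.74 at 3 ppm (n = 12; 38.8 to 54.1%) and 43.66% ± 3.41 at 0.1 ppm (n = 9; 38.2 to 49.4%), and the 3 groups overlapped. Against 3 ppm the difference was -3.63 ± 1.60 points (SE) at 30 ppm (adjusted p = 0.657 by the quasi-binomial test) and -3.67 ± 1.53 points at 0.1 ppm (adjusted p = 0.194). At an unadjusted p under 0.05 there were also 2 promoters, those of Mest and Impact, at 30 against 3 ppm, with -5.27 ± 2.01 and -2.16 ± 1.46 points, beside 3.66% of all promoters. At the other 7 control regions the differences from 3 ppm ran from -2.89 points (Kcnq1ot1 at 0.1 ppm) to 3.06 points (Peg10 at 30 ppm). For 30, 3 and 0.1 ppm in turn the means were 47.9, 47.4 and 48.9% at Grb10 and 39.9, 39.9 and 41.1% at Snrpn.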

How the data were processed

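DNA of single E11.5 brains was cut with MspI and TaqI, and libraries of 5-methylcytosine alone were made by oxidative bisulfite conversion. The authors trimmed reads with Trim Galore 0.6.10, aligned them to mm10 with Bismark 0.24.1, removed duplicates by molecular identifiers and deposited, per CpG and embryo, a read count of at least 2 and the methylated fraction of these reads. Both strands of a CpG stand on 1 line, and the step that joined them is not given in the sources used here. Deposited positions count from 0 and were shifted to count from 1. Lists of differentially methylated regions, which hold the authors' comparisons, were not used.

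Methylated reads were taken as count times fraction, and the level of a feature as methylated reads over all reads, summed over its autosomal CpGs with at least 5 reads in all 35 embryos. Depth was 25.6 to 197.3 M CpG calls an embryo. Promoters reached 1.0 kb to each side of a GENCODE M21 start, and windows 2.0 kb beyond the gene. A feature needed 3 CpGs and an intermediate block 5. Features of a class were tested together genome-wide by quasi-binomial logistic regression on the summed reads, with the dispersion moderated over features (squeezeVar of limma 3.58.1, R 4.3.3) and held at 1 or above, 2-sided F tests and Benjamini-Hochberg adjustment over the class. Calls needed both an adjusted p below 0.05 and a difference of at least 10 points. Differences, SE and 95% intervals came from least squares on the levels of the embryos (numpy 2.4.6, pandas 2.3.3, scipy 1.17.1, Python 3.11.15), and reference bases were read with pysam 0.24.0. Data were also simulated with changes well above the 10 points of a call and 1 common setting for the spread. There the test recovered most changed features, fewest for the difference of effects between diets. It gave somewhat more small p-values among unchanged features than its nominal rate. The simulation does not show how many changes as small as those at the 8 control regions would be found. Embryos were grouped by the genotype and diet of their labels in 9 comparisons, and litter mates share a dam. Alternatives were a minimum of 10 reads, other CpG sets, block bounds and promoter widths, limma on CpG means, no minimum difference, a filter on spread, litter as a block, the excluded library, the 3 libraries against their labels and each embryo left out in turn. The loci, the lists of further genes and the tests were chosen with earlier results of these data known. By the naming rule the loci are described by control region, promoters and rest of window where these could be tested (8, 10 and 6 of 10), and by the CpG nearest the middle of each control region.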

Additional observations from a re-analysis of the deposited data

Results flagged for a closer look

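Of 120 sets of 4 to 6 embryos of the same genotype and diet, 7 held an embryo far from the others by Dixon's ratio, and chance gives about 1 in 20. At the Kcnq1ot1 control region HET 30 ppm replicate 2 stood at 37.9%, below the 46.4 to 49.1% of the other HET embryos on that diet, and at the Kcnq1ot1 promoters KO 0.1 ppm replicate 3 stood at 23.6%, below 46.9 to 49.6%. In the rest of the Kcnq1ot1 window WT 3 ppm replicate 4 had 46.8%, against 56.6 to 58.1%. At the Plagl1 control region KO 3 ppm replicate 3 had 38.8%, against 46.9 to 50.2%. At the Grb10 promoters WT 3 ppm replicate 2 had 23%, above the 20.6 to 21% of its group, and at the Inpp5f promoters KO 30 ppm replicate 4 had 12.4%, above 8.67 to 9.58%. In the rest of the Snrpn window HET 30 ppm replicate 2 had 58%, below 77.4 to 84.8%. None of these embryos is among the 3 libraries whose Tet1 level went against the label.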

How the results depend on the processing

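With no minimum difference, 2 promoters (Mest and Grb10) and 1 rest (Grb10) were called in KO against WT with diet as covariate, and at 3 ppm 3 promoters (Snrpn, Mest and Grb10) and 1 rest (Inpp5f). The same rule called 32.1% of all promoters and 50.7% of all rests with diet as covariate, and 23.5% and 34.6% at 3 ppm. With litter as a block, 1 control region was called in HET against WT (Snrpn, -10.2 points), and no other call changed where this fit could be made. Without the 3 libraries whose Tet1 level went against the label, 1 rest was called at 30 ppm (Grb10), where 2 of the 3 were left out, while the share of all rests called rose from 0.949 to 10.3%, and blocks called in HET against WT went from 119 to 397. At a minimum of 10 reads, 0 control regions (of 7) and 0 promoters (of 9) were called at 3 ppm, because Snrpn then had too few CpGs to be tested. When each embryo was left out in turn, the count of called rests at 30 ppm ranged from 0 to 1 (Grb10, 14.2 points without WT 30 ppm replicate 2), of called promoters at 3 ppm from 1 to 2 (Mest, without WT 3 ppm replicate 3 or KO 3 ppm replicate 3) and of called control regions at 0.1 ppm from 0 to 1 (Nnat, without WT 0.1 ppm replicate 1). With 1 WT embryo left at 0.1 ppm, that embryo is assumed to vary like the other group. Apart from these, the counts of called loci under the alternatives matched those of the report. Depth limits Peg3 and Mest, which had no control region when only CpGs read in all 35 embryos were used. Reads over the control region numbered 80 to 865 at Snrpn, 112 to 836 at Inpp5f and 110 to 1233 at Peg10. Whether depth shaped the levels at these regions was not tested.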

Other observations

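Further imprinted loci were counted in KO against WT beside the 10 described above, on a list of 15 chosen with earlier results of these data known. None of their 15 promoters was called, and 1 of 9 testable rests was, that of Zdbf2, beside 5.09% of all promoters and 7.77% of all rests. Zdbf2 had 28.2% in WT and 40.8% in KO, a difference of 13.03 ± 2.16 points (SE). Median differences were 1.64 points over the 15 promoters and 2.26 over the 9 rests, against 0.38 and 2.66 points over all promoters and rests. Promoters that carry a mark in this list included Mcts2 at 49.7% in WT and 47.8% in KO, Nespas at 44.3% and 45.28%, Nap1l5 at 45.81% and 45.95%, Zrsr1 at 46.9% and 48.6%, Peg13 at 45.79% and 48.6% and Airn at 48.4% and 50.45%. Among loci with a paternal mark, the promoter of H19 stood at 36.62% in WT and 43% in KO, Meg3 at 57.48% and 57.9%, Rasgrf1 at 0.97% and 0.99% and Zdbf2 at 0.81% and 0.78%. The promoters of Rasgrf1 and Zdbf2 were almost unmethylated and so do not read a mark. The rest of the Rasgrf1 window stood at 39.1% in WT and 44.1% in KO and was not called. The promoters of 4 loci passed the adjusted p of the quasi-binomial test but were under 10 points, beside 32.1% of all promoters that passed it. They were Dlk1, with 8.93% in WT and 15.8% in KO (6.94 ± 1.41 points, adjusted p = 1.94e-05), H19 (6.38 ± 2.07 points, adjusted p = 0.0147), Gnas (2.31 ± 0.70 points, adjusted p = 0.0162) and H13 (1.64 ± 0.60 points, adjusted p = 0.0433). Within diets 1 promoter was called, that of H19 at 0.1 ppm with 11.38 ± 3.20 points (adjusted p = 0.0294 by that test; 4.67% of all promoters), and 1 rest, that of Zdbf2 at 3 ppm with 16.3 ± 2.69 points (10.5% of all rests). The groups at 0.1 ppm held 2 WT embryos, 1 of them among the libraries whose Tet1 level went against the label.

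Of 10 genes that set or hold imprints, the promoter of Dnmt3l, the cofactor of de novo methylation in oocytes, was called among 8 tested, with 65.5% in WT and 76.2% in KO. Of 9 rests, 3 were called. They were those of Dppa3, a maternal factor that shields methylation in the zygote, with 60.05% in WT and 77.8% in KO, Trim28, the corepressor recruited by ZFP57, with 28.7% and 39.9%, and Dnmt3a, a de novo methyltransferase, with 55.5% and 68.9%. The median difference over the 9 rests was 2.67 points, against 2.66 over all rests. Genome-wide 5.09% of promoters and 7.77% of rests were called in the same comparison.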
